A study of Homo sapiens with 20 samples.

Results

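The chromatin around CDK4, HMGA2, MDM2 and FRS2, 4 genes of the 12q13 to 12q15 region, was examined in the deposited ATAC-seq peak lists of SW872, an established human liposarcoma cell line. ATAC-seq uses a transposase that inserts into open DNA, so a peak is a stretch of accessible chromatin. The members are the peaks that overlap 1 of 4 hg19 windows, CDK4 at chr12:58092000-58196000, HMGA2 at chr12:66168000-66410000, MDM2 at chr12:69152000-69290000 and FRS2 at chr12:69814000-70024000, so they were chosen by position and not by any measured value. They number 504 of 1407450 peaks over the 7 lists. The 4 windows held 48 peaks in the EV list, 51 in TAZ4SA, 59 in TFE3, 84 in YAP-TFE3, 85 in CAMTA1, 86 in TAZ-CAMTA1 and 91 in YAP5SA.

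Each list belongs to 1 vector stably transduced into the same cell line. EV is the empty vector. TAZ4SA and YAP5SA carry serine-to-alanine forms of TAZ and of YAP. CAMTA1 and TFE3 are the full-length partners in the gene fusions, and TAZ-CAMTA1 and YAP-TFE3 are the fusion proteins of epithelioid hemangioendothelioma, a vascular sarcoma. The YAP-TFE3 libraries carry a title that names YAP5SA as their YAP part. Each vector had 3 libraries except TFE3, which had 2, and the third EV library is titled a redo. A list holds 1 set of peaks per vector and no value per library, so the spread between libraries is unknown, no test was possible, and every comparison below is a description of 7 lists. The depth behind each list is also unknown, so a site without a peak in a list is a site where none was called and may still be open there.

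CDK4 is the cyclin D-dependent kinase that phosphorylates RB and lets cells pass from G1 into S phase. MDM2 is the ubiquitin ligase that binds p53 and marks it for degradation, and its gene is itself induced by p53. HMGA2 is an AT-hook protein that bends and opens chromatin, is high in embryonic mesenchyme and low in most adult tissues, and is rearranged in lipomas. FRS2 is the docking protein that couples activated FGF receptors to the RAS-MAPK pathway. In well-differentiated and dedifferentiated liposarcoma a stretch of 12q that includes these genes is commonly amplified, and amplified DNA gives more fragments per cell in any assay that counts fragments. Copy number was not measured in these data. The question asked here was whether the number and the size of the peaks stood out over the windows, or over the whole stretch between them, against the rest of chromosome 12.

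The promoter sequences of these genes are shown first because each window held a broad peak of every list at the same distance from 1 of its ends, as described below. They come from RefSeq in GRCh38.p14, run from 250 bases before to 50 after the annotated start, and are written 5′ to 3′ on the strand of the gene. The table had 1 entry for CDK4, 4 for MDM2, of which the first of each of 2 groups of starts is given, and 1 for FRS2. HMGA2 had none. Peaks and promoters are in different builds, so no peak was placed on these letters. Capitals mark CACGTG, the E-box read by the MiT family of factors to which TFE3 belongs, in CDK4. They mark the GC box GGGCGG or its complement in the upstream MDM2 start and in FRS2, and the AP-1 motif TGANTCA in the downstream MDM2 start.
CDK4, chr12:57752261-57752560, minus strand: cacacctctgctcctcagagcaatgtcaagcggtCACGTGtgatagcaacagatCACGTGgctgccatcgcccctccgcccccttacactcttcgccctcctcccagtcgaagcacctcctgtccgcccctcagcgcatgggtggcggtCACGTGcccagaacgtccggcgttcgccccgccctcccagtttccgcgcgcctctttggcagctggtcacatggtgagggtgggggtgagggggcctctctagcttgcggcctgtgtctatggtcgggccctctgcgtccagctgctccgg
MDM2 upstream start, chr12:68807922-68808221, plus strand: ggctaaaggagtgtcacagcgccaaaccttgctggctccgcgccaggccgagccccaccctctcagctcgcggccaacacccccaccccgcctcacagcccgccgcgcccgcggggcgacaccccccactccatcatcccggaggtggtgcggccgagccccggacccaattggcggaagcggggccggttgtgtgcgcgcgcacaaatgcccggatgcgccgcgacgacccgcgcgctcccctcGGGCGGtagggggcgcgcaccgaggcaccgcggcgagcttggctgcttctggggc
MDM2 downstream start, chr12:68808767-68809066, plus strand: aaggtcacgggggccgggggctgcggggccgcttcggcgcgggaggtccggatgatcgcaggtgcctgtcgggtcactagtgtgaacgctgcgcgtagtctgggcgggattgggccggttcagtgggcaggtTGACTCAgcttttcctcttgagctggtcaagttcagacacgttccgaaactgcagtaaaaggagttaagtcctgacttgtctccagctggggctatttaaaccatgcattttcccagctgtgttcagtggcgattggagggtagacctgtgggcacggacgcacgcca
FRS2, chr12:69470138-69470437, plus strand: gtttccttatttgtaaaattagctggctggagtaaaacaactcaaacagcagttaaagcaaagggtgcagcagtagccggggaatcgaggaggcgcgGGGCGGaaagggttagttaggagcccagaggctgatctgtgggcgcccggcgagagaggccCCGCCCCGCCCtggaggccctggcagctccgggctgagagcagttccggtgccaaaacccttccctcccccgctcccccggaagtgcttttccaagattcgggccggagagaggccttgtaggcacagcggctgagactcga

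The CDK4 promoter held 3 E-boxes, and 2 of them are the longer GTCACGTG, which contains the E-box. Over the 27305 genes with a promoter in the table, searched on both strands, 7.43% held CACGTG and 2.53% held GTCACGTG. The same promoter had 3 GC boxes, FRS2 had 3 and each MDM2 start had 1, against 44.6% of all promoters with at least 1. TGANTCA matched 1 time at the downstream MDM2 start and in none of the other 3 windows of letters, against 7.76% of all promoters. GGAATG, the core letters bound by the TEAD factors that carry YAP and TAZ to DNA, was not among the letters of these 4 windows, and 14% of all promoters held it. GC content was 66% for CDK4, 74.7% and 59.7% for the upstream and downstream MDM2 starts and 61% for FRS2, with a median of 58.3% over all promoters. The MDM2 starts are 845 bases apart, and the downstream start is the one through which p53 is known to act.

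To follow the same place across vectors, overlapping peaks of the 7 lists were merged into sites, which were numbered along each window. The size of a peak is given as its area, the area under the curve that the peak caller reports for it, of which the lowest in any list was 20. This area can be small for the width of a peak. MDM2 site 9 in CAMTA1 had an area of 22.9 over 56 bases, with a −log10 p of 3.70 at its highest point. If only the part above a cutoff counts, which is not stated, fold differences between small areas would exceed those of the statistic. Areas were not normalised between lists, and where several peaks of a list fall in a site their areas were added. There were 34 sites in the CDK4 window, 52 in HMGA2, 10 in MDM2 and 25 in FRS2. All 7 lists held 22 of these 121 sites, a share of 18.2% (exact binomial 95% interval 11.8 to 26.2), and 40 sites, or 33.1%, were in 1 list. Of the 13688 sites on the rest of chromosome 12, 17.5% were in all 7 lists and 38% in 1. The share of the rest held by all lists lay within the interval of the windows. Of the 40 sites in a single list, 14 were in YAP5SA, 9 in TAZ-CAMTA1, 9 in YAP-TFE3, 1 in EV, 3 in TAZ4SA and 2 each in CAMTA1 and TFE3. On the rest of the chromosome YAP5SA held 24.8% of the single-list sites, TAZ-CAMTA1 26.8%, YAP-TFE3 23.7%, CAMTA1 14%, TAZ4SA 5.75%, EV 3.77% and TFE3 1.23%, and the exact interval of the windows included this share for each list.

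**Figure D1:**
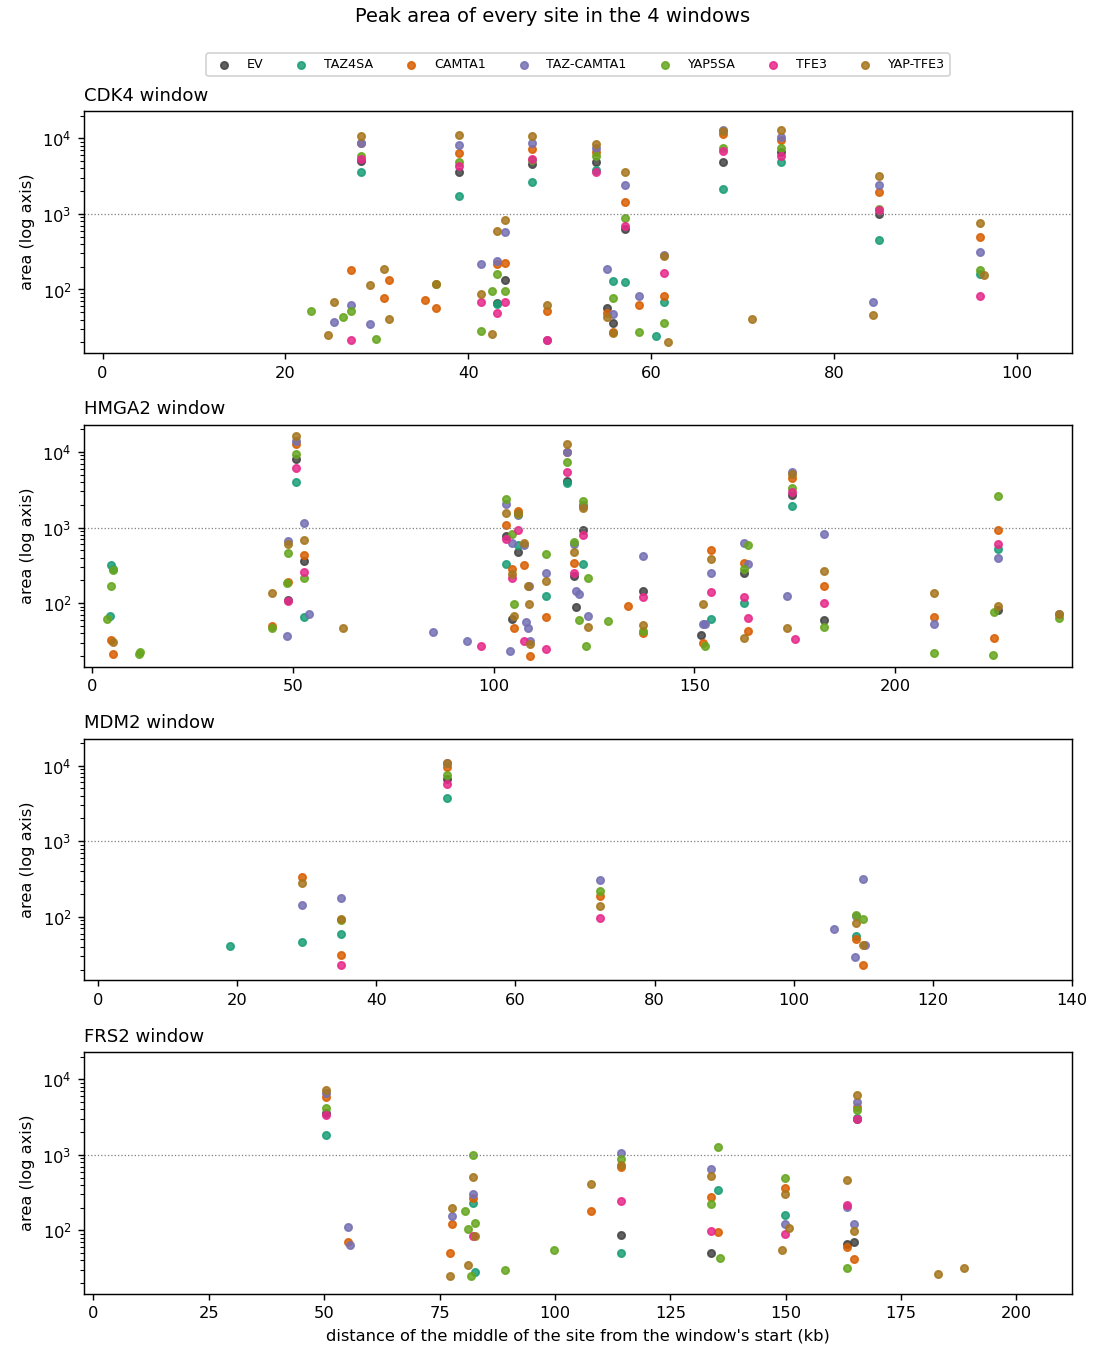
Every site of the 4 windows, with the distance of its middle from the window's start in kb on the x axis and its area on a log y axis, 1 point for each of the 7 lists that held it. All 7 points of 6 sites lie above the dotted line at an area of 1000 in the CDK4 window, of 3 sites in HMGA2, of 1 in MDM2 and of 2 in FRS2.

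MDM2 had the simplest window. A single site held nearly all of its signal, in every list, and the other 9 sites were small. MDM2 site 4, at chr12:69200961-69203237, had an area of 6639 in EV, 3691 in TAZ4SA, 9616 in CAMTA1, 10740 in TAZ-CAMTA1, 5741 in TFE3, 7539 in YAP5SA and 10946 in YAP-TFE3. TAZ4SA was lowest and YAP-TFE3 highest, 2.97-fold apart. On chromosome 12 as a whole TAZ4SA also had the fewest peaks, 5349, and the lowest median area, 118, and YAP-TFE3 the most peaks, 9626, and the highest median area, 174. What part these differences between whole lists have in the order at single sites was not tested. MDM2 site 4 took from 90.1% of the window's summed area in TAZ-CAMTA1 to 100% in EV, where the 2 peaks of the window both fell in it. Its largest peak exceeded 94.1% of all chromosome 12 peaks in TAZ4SA and between 97.7% and 98.2% of them in the other 6 lists. The −log10 p at its summit ran from 11.1 in TAZ4SA to 18.3 in YAP-TFE3. The site was 2277 bases wide, more than the distance between the MDM2 starts shown above.

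The remaining sites of the MDM2 window were far smaller than site 4 in every list that held them. Site 5, at chr12:69224090-69224271, was absent from EV and TAZ4SA and had an area of 186 in CAMTA1, 302 in TAZ-CAMTA1, 95.9 in TFE3, 222 in YAP5SA and 141 in YAP-TFE3. Site 3, at chr12:69186805-69187035, was absent from EV and reached 177 in TAZ-CAMTA1, with 22.8 to 94.0 in the other 5 lists. Site 2, at chr12:69181147-69181583, had 334 in CAMTA1, 283 in YAP-TFE3, 142 in TAZ-CAMTA1 and 47.0 in TAZ4SA and no peak elsewhere. Site 9, at chr12:69261897-69262130, had 315 in TAZ-CAMTA1, 94.5 in YAP5SA, 42.8 in YAP-TFE3 and 22.9 in CAMTA1. Against the 7539 that was the median of site 4, none of these passed an area of 334 in any list.

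HMGA2 had 3 large sites and a cluster of smaller ones between them. HMGA2 site 10, at chr12:66217139-66220240, was the largest, with an area of 8176 in EV, 4007 in TAZ4SA, 12881 in CAMTA1, 14123 in TAZ-CAMTA1, 6161 in TFE3, 9511 in YAP5SA and 16243 in YAP-TFE3. The last of these was the largest area of any site in the 4 windows, and it lay above 99.4% of the chromosome 12 peaks of its list. Site 28, at chr12:66284858-66287748, followed with 4130 in EV, 3876 in TAZ4SA, 9979 in CAMTA1, 10085 in TAZ-CAMTA1, 5454 in TFE3, 7454 in YAP5SA and 12784 in YAP-TFE3. Site 45, at chr12:66341370-66342986, had 2719 in EV, 1934 in TAZ4SA, 4486 in CAMTA1, 5471 in TAZ-CAMTA1, 2997 in TFE3, 3330 in YAP5SA and 5177 in YAP-TFE3. TAZ4SA was lowest at all 3, and YAP-TFE3 or TAZ-CAMTA1 was highest. Over all chromosome 12 peaks the 95th percentile of area was likewise lowest in TAZ4SA, at 3286. It was highest in YAP-TFE3, at 7237, followed by TAZ-CAMTA1, at 6600. Site 10 held 28.0% (YAP5SA) to 43.9% (EV) of the window's summed area, a smaller share than the leading MDM2 site held of its own window in any list.

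Among the smaller HMGA2 sites held by several but not all lists, sites 19 and 47 were named for their largest area in any list. A difference between vectors was thus part of the choice. Whether smaller sites differ more than the large ones was not tested. Site 19, at chr12:66272360-66272766, had no peak in TAZ4SA, an area of 62.0 in EV, 218 in TFE3, 246 in YAP-TFE3, 279 in CAMTA1, 617 in TAZ-CAMTA1 and 816 in YAP5SA. Site 47, at chr12:66349807-66350582, was likewise absent from TAZ4SA and had 816 in TAZ-CAMTA1 against 48.8 to 264 in the other 5 lists. A further site was picked out after its values were seen. Site 51, at chr12:66392899-66394076, had an area of 81.5 in EV, 90.6 in YAP-TFE3, 400 in TAZ-CAMTA1, 528 in TAZ4SA, 608 in TFE3, 918 in CAMTA1 and 2597 in YAP5SA. YAP5SA stood above all other lists there, and the YAP-TFE3 list, whose areas were highest at HMGA2 sites 10 and 28, was next to lowest. Ranked within its own list, the site's largest peak exceeded 90.6% of chromosome 12 peaks in YAP5SA, 76.5% in TAZ4SA, 39.7% in EV and 27.4% in YAP-TFE3. Sites 3 and 4, also picked after their values were seen, lie near the start of the window and reached 316 and 280 in TAZ4SA and 167 and 274 in YAP5SA. No other list passed 32.6 at either of them, and EV, TAZ-CAMTA1 and TFE3 had no peak at them.

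FRS2 had 2 large sites. FRS2 site 1, at chr12:69863646-69864969, had an area of 3538 in EV, 1822 in TAZ4SA, 5863 in CAMTA1, 6652 in TAZ-CAMTA1, 3398 in TFE3, 4195 in YAP5SA and 7221 in YAP-TFE3. Site 23, at chr12:69979003-69980036, had 2995 in EV, 3075 in TAZ4SA, 4304 in CAMTA1, 5014 in TAZ-CAMTA1, 2993 in TFE3, 3979 in YAP5SA and 6186 in YAP-TFE3. TAZ4SA was lowest at site 1, while at site 23 it lay between EV and YAP5SA. The next protein-coding gene after FRS2 in the RefSeq order is CCT2, a subunit of the chaperonin that folds actin and tubulin, and whether site 23 lies in it was not determined.

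The lists differed at smaller FRS2 sites. Site 14, at chr12:69928195-69928595, was in all lists with 87.2 in EV, 49.6 in TAZ4SA, 682 in CAMTA1, 1072 in TAZ-CAMTA1, 241 in TFE3, 883 in YAP5SA and 725 in YAP-TFE3. EV and TAZ4SA were the lowest lists at this site. Site 16, at chr12:69948855-69949627, had 1276 in YAP5SA, 344 in TAZ4SA and 96.6 in CAMTA1 and no peak in the other 4 lists. Site 9, at chr12:69896181-69896465, was absent from EV and had 992 in YAP5SA, 509 in YAP-TFE3, 301 in TAZ-CAMTA1, 268 in CAMTA1, 229 in TAZ4SA and 83.9 in TFE3. Sites 9 and 16, which were named for their largest area in any list, were both largest in YAP5SA. Among the named sites that were missing from some list, YAP5SA also led at HMGA2 site 19, while YAP-TFE3 led at CDK4 sites 17 and 33, TAZ-CAMTA1 at HMGA2 site 47 and MDM2 sites 3, 5 and 9, and CAMTA1 at MDM2 site 2. All of these but MDM2 sites 3 and 5 were named by their largest area in any list, so the leading list is a description only.

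CDK4 lay in the most crowded of the 4 windows. In RefSeq order OS9, AGAP2 and TSPAN31 come just before CDK4 and MARCHF9, CYP27B1 and METTL1 just after it, so the window may hold the starts of several genes. CDK4 site 30, at chr12:58164961-58167336, had an area of 6565 in EV, 4882 in TAZ4SA, 9365 in CAMTA1, 10456 in TAZ-CAMTA1, 5798 in TFE3, 7536 in YAP5SA and 12751 in YAP-TFE3. Site 28, at chr12:58158261-58161424, had 4859 in EV, 2166 in TAZ4SA, 11582 in CAMTA1, 12822 in TAZ-CAMTA1, 6894 in TFE3, 7385 in YAP5SA and 12466 in YAP-TFE3. Site 6, at chr12:58119501-58121082, had 5009 in EV, 3628 in TAZ4SA, 8615 in CAMTA1, 8789 in TAZ-CAMTA1, 5252 in TFE3, 5857 in YAP5SA and 10634 in YAP-TFE3. TAZ4SA was lowest at each of the 3, and the fusions and CAMTA1 were the 3 highest. The 95th percentile of area over all chromosome 12 peaks had the same lists at its ends. It was 7237 in YAP-TFE3, 6600 in TAZ-CAMTA1 and 6084 in CAMTA1, and lowest, at 3286, in TAZ4SA. Ranked within its own list, the largest peak of site 30 exceeded 97.7% (TAZ4SA) to 98.6% (YAP-TFE3) of chromosome 12 peaks. The largest site of each list was site 28 in CAMTA1, TAZ-CAMTA1 and TFE3 and site 30 in the others. It took 16.6% to 24.6% of the summed area of the window, the lowest share among the 4 windows in every list.

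The CDK4 sites that were missing from a list were small. Site 17, at chr12:58135587-58136367, had no peak in TAZ4SA, 69.2 in TFE3, 95.5 in YAP5SA, 132 in EV, 224 in CAMTA1, 573 in TAZ-CAMTA1 and 838 in YAP-TFE3. Site 33, at chr12:58187733-58188135, was absent from EV and had 80.8 in TFE3, 161 in TAZ4SA, 183 in YAP5SA, 309 in TAZ-CAMTA1, 500 in CAMTA1 and 767 in YAP-TFE3. Both fusion lists were among the 3 highest at both sites. As the sites were named for their largest area in any list, this order is a description only. Sites held by all 7 lists took at least 96.2% of the CDK4 window's summed area in each list, and at least 86.7% for HMGA2, 90.1% for MDM2 and 71.6% for FRS2.

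**Figure D2:**
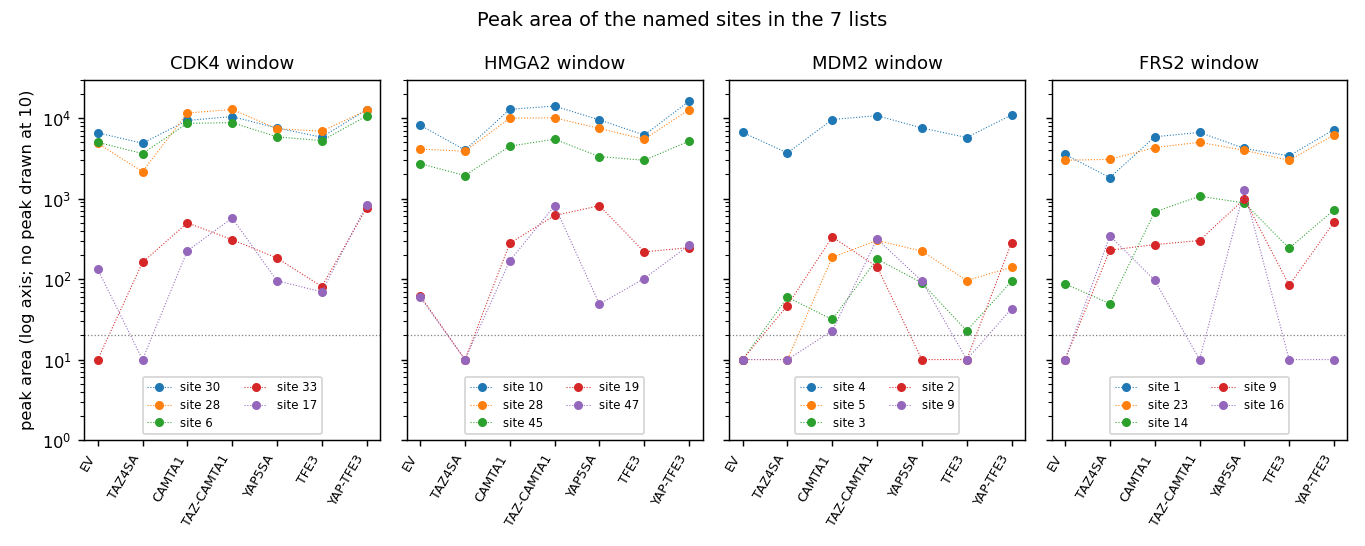
Area of the named sites on a log y axis in each of the 7 lists, 1 panel per window and 1 colour per site, with a list that had no peak drawn at 10, under the dotted line at the lowest area of 20. The upper lines of each panel share a profile with a dip at TAZ4SA in most of them, and the lower points scatter, with FRS2 site 16 at 1276 in YAP5SA and absent from 4 lists.

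The largest sites of the MDM2, HMGA2 and FRS2 windows lay at the same place relative to the edge of the window. MDM2 site 4 began 49.0 kb and ended 51.2 kb from the window's start, HMGA2 site 10 began at 49.1 kb and ended at 52.2 kb, and FRS2 site 1 began at 49.6 kb and ended at 51.0 kb. In the CDK4 window, whose gene is on the minus strand, site 20 at chr12:58145023-58146959 lay 49.0 to 51.0 kb from the window's end. If the windows were drawn with a margin of 50 kb on each side of the gene, which the rule does not state, these 4 sites lie over the start of each gene, HMGA2 being like MDM2 and FRS2 a plus-strand gene. No other of the 121 sites spans a point 50 kb from either edge of its window. CDK4 site 20 had a smaller median area than 3 other sites of its window, with 4878 in EV, 3800 in TAZ4SA, 6612 in CAMTA1, 7368 in TAZ-CAMTA1, 3592 in TFE3, 5763 in YAP5SA and 8526 in YAP-TFE3. TFE3 was the lowest list and YAP-TFE3 the highest at this site, whose largest peak exceeded 93.8% to 96.6% of the chromosome 12 peaks of its list.

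Large sites were set against the rest of the chromosome by counting those with an area of at least 1000 in every list, a value chosen after the areas were seen. The CDK4 window held 6 of them, HMGA2 3, MDM2 1 and FRS2 2, which are 57.7, 12.4, 7.25 and 9.52 per Mb. The rest of chromosome 12 held 790, or 5.93 per Mb. Counts of 1 and 2 are too small to be read as rates. Over the whole span from the CDK4 window to the FRS2 window there were 70 such sites, 5.87 per Mb, against 6.0 per Mb outside the span.

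Peak density was highest in the CDK4 window, above the rest of the chromosome in HMGA2, and close to it or below it in MDM2 and FRS2. The CDK4 window held 20 peaks in EV and in TAZ4SA, 22 in TFE3, 24 in TAZ-CAMTA1, 28 in CAMTA1 and in YAP-TFE3 and 29 in YAP5SA. These are 192 to 279 peaks per Mb, against 39.8 to 71.7 per Mb on chromosome 12 outside the 4 windows. The ratio ran from 3.25 (exact 95% interval 2.08 to 4.85) in TAZ-CAMTA1 to 4.83 (2.95 to 7.47) in TAZ4SA, with a median of 4.2 over the 7 lists. The intervals cover counting error only and treat each peak as independent. Several peaks of a list can fall in the same site, so the intervals are too narrow where peaks cluster. All 7 lay above 1. Counted as bases covered in place of peaks, the ratio was higher in 4 lists than its interval, at 5.69 in TAZ-CAMTA1, 6.54 in YAP-TFE3, 6.63 in TFE3 and 6.87 in EV. It also rose in TAZ4SA, CAMTA1 and YAP5SA but stayed within the interval there, and TAZ4SA had the highest ratio of all. Peaks covered 10.1%, 17.1% and 15.4% of the window in these lists, against 1.44%, 2.92% and 2.50% of the rest.

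The HMGA2 window held 18 peaks in TAZ4SA, 20 in EV, 27 in TFE3, 32 in YAP-TFE3, 37 in CAMTA1 and 41 each in TAZ-CAMTA1 and YAP5SA. The ratio to the rest of the chromosome ran from 1.80 (1.10 to 2.79) in EV to 2.61 (1.87 to 3.54) in YAP5SA, with a median of 2.27. All 7 intervals lay above 1, and they overlapped each other.

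The MDM2 window held 2 peaks in EV, 3 in TFE3, 6 each in TAZ4SA, CAMTA1 and YAP5SA, 7 in YAP-TFE3 and 10 in TAZ-CAMTA1. Its ratio ran from 0.316 (0.0383 to 1.14) in EV to 1.09 (0.401 to 2.38) in TAZ4SA, with a median of 0.670. The FRS2 window held 6 in EV, 7 each in TAZ4SA and TFE3, 11 in TAZ-CAMTA1, 14 in CAMTA1, 15 in YAP5SA and 17 in YAP-TFE3. Its ratio ran from 0.623 (0.229 to 1.36) in EV to 1.13 (0.658 to 1.81) in YAP-TFE3, with a median of 0.838. In both windows all 7 intervals included 1, so with 2 to 17 peaks a window no difference from the rest of the chromosome was detectable in either direction.

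**Figure D3:**
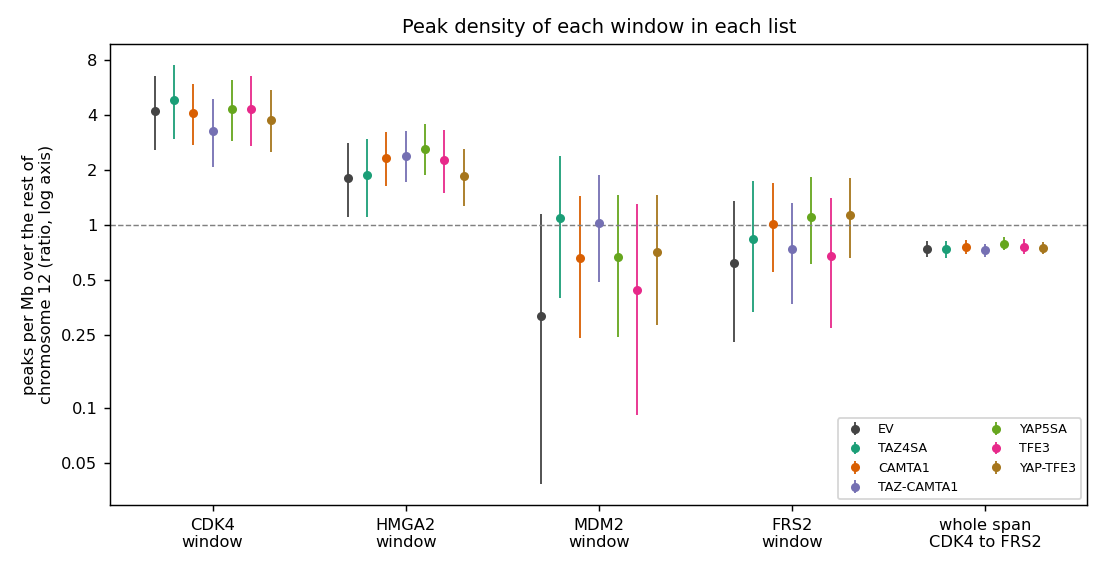
Peaks per Mb in each window, and in the whole span from the CDK4 to the FRS2 window, over the rest of chromosome 12, on a log axis, 1 point per list with its exact 95% interval for counting error. CDK4 and HMGA2 lie above the dashed line at 1 in all 7 lists, the intervals of MDM2 and FRS2 cross it, and the span lies below it at 0.730 to 0.789.

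Windows of the same length laid end to end along chromosome 12 gave the place of each window in the chromosome. Among the windows with at least 1 peak, the CDK4 window had more peaks than 90.9% (TAZ-CAMTA1) to 97.1% (TAZ4SA) of them. HMGA2 had more than 75.2% (EV) to 90.1% (YAP5SA), FRS2 more than 34.1% (EV) to 60.8% (YAP-TFE3), and MDM2 more than 14.1% (EV) to 51.6% (TAZ-CAMTA1). CDK4 thus stood near the upper end in all lists, and the MDM2 window was near or below the middle in all lists. How these counts of called peaks relate to copy number was not tested.

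The median peak of the windows did not stand out in size. A median says little of the largest sites, which are counted above. Over all 4 windows the median area was 199 in EV, 181 in TAZ4SA, 166 in CAMTA1, 190 in TAZ-CAMTA1, 120 in TFE3, 126 in YAP5SA and 137 in YAP-TFE3. On the rest of chromosome 12 it was 125, 118, 164, 159, 145, 136 and 175 in the same order. The ratio was thus above 1 in EV, TAZ4SA, CAMTA1 and TAZ-CAMTA1 and below 1 in the other 3, from 0.786 in YAP-TFE3 to 1.60 in EV with a median of 1.01, and the order-statistic 95% interval of the median included 1 in all 7. The same held for CDK4, HMGA2 and FRS2 alone in each of the lists. Intervals of single windows could be wide, such as 0.347 to 16.4 for CDK4 in EV and 0.709 to 31.6 for FRS2 in TAZ-CAMTA1. A difference in median size may thus have gone undetected. For MDM2 the ratio was 0.485 to 0.927 in 6 lists, and 26.6 in EV, where the 2 peaks of the window were both parts of site 4.

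Weak and strong peaks were mixed in the windows as elsewhere. Of the 48 to 91 window peaks, 43.1% (TAZ4SA) to 61% (TFE3) had a summit −log10 p below 5, against 48.3% to 54.1% on the rest of the chromosome. The exact interval of the window share included the share of the rest in all 7 lists. The bases covered by peaks were 10.1% to 20.8% of the CDK4 window, 3.52% to 7.64% of HMGA2, 1.47% to 2.38% of MDM2 and 1.22% to 2.45% of FRS2, against 1.44% to 3.41% of the rest.

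From the start of the CDK4 window to the end of the FRS2 window is a span of 11.9 Mb, with 50 other protein-coding genes between CDK4 and FRS2 in RefSeq order. Amplicons of 12q are known to be often discontinuous, with CDK4 apart from MDM2, so the span was read beside the single windows and not in their place. Peaks were sparser over this stretch than over the rest of chromosome 12. The span held 415 peaks in EV, 360 in TAZ4SA, 611 in CAMTA1, 635 in TAZ-CAMTA1, 458 in TFE3, 626 in YAP5SA and 657 in YAP-TFE3. The ratio of peaks per Mb to the rest of the chromosome was 0.730 (0.672 to 0.791) in TAZ-CAMTA1 to 0.789 (0.726 to 0.856) in YAP5SA, with a median of 0.748. All 7 intervals lay below 1. Median areas in the span were 1.08 to 1.32 times those outside it. The interval of the area ratio included 1 in 6 lists and lay above 1 in TAZ4SA.

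The span was not even. In bins of 500 kb, a bin was called dense if it held at least 2 times the median number of peaks of the chromosome 12 bins with a peak. The share of all 268 bins called dense was 21.3% in EV, 22% in TAZ4SA, 23.5% in CAMTA1, 25% in TAZ-CAMTA1, 20.5% in TFE3, 20.9% in YAP5SA and 22% in YAP-TFE3. Of the 25 bins of the span, 1 was dense in EV and in TFE3 and 2 in each of the other 5 lists, or 4% and 8%, below those shares in every list. The bin with the CDK4 window was dense in all lists, with 54 to 80 peaks. The HMGA2 bin was dense in CAMTA1, TAZ-CAMTA1 and YAP5SA, at 2.00 to 2.31 times the median, and at 1.63 to 1.73 times in the other 4. The MDM2 bin lay at 1.05 to 1.41 times the median and the bins of the FRS2 window at 0.591 to 1.39 times.

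The high density around CDK4 did not begin at the span. The 4 bins before it, chr12:56000001-58000000, held 43 to 55 peaks in EV beside 54 in the CDK4 bin, 37 to 63 beside 57 in TAZ4SA, 52 to 74 beside 71 in CAMTA1, 61 to 66 beside 78 in TAZ-CAMTA1, 58 to 76 beside 75 in YAP5SA, 43 to 74 beside 63 in TFE3 and 61 to 73 beside 80 in YAP-TFE3. In the 4 bins after it the highest count was 9 to 25 over the lists. The CDK4 window thus lay at the telomeric end of a peak-rich stretch. That stretch also ended on the centromeric side. The bins chr12:55000001-55500000 and chr12:55500001-56000000 held 9 and 3 peaks in EV and 18 and 11 in YAP-TFE3. Beyond them chr12:54500001-55000000 was dense again, with 87 in EV and 120 in YAP-TFE3. On the telomeric side the density fell inside the span. Farther in, chr12:60628891-62252938 held no peak in any of the lists, a stretch of 1.62 Mb, and 2 of the 25 bins had none at all.

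**Figure D4:**
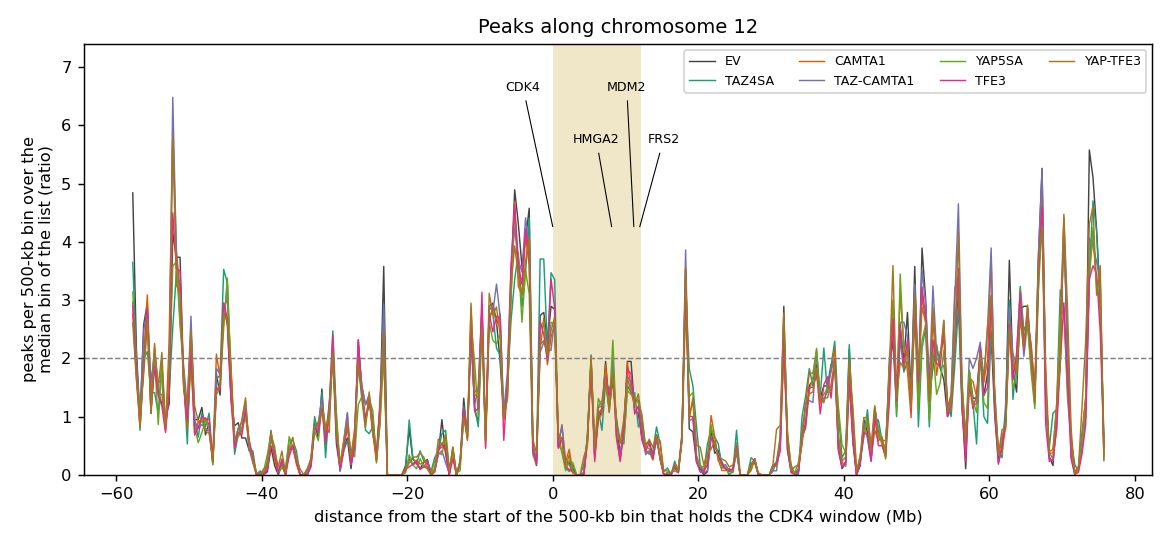
Peaks per 500-kb bin over the median bin of the same list, against the distance in Mb from the start of the bin that holds the CDK4 window, 1 line per list, with the span from CDK4 to FRS2 shaded and the dashed line at 2 marking the dense call. The lines fall from the CDK4 bin to 0 within the shaded span and then stay near or below 2, and they are higher over several other parts of the chromosome.

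Chromosome 12 itself was not among the densest autosomes. It held 40 (TAZ4SA) to 71.9 (YAP-TFE3) peaks per Mb and ranked 12th to 16th from the densest of 22 autosomes, below the autosome median in each list. Its median peak area was above that of all autosomal peaks in each list, such as 145 against 143 in TFE3 and 118 against 92.4 in TAZ4SA. The share of chromosome 12 peaks that fell in the 4 windows was 0.780% in EV, 0.873% in YAP-TFE3, 0.894% in TFE3, 0.903% in TAZ-CAMTA1, 0.953% in TAZ4SA, 0.960% in CAMTA1 and 1.04% in YAP5SA, and the exact intervals of these shares all overlapped. The windows make up 0.519% of the chromosome, so these shares were 151% (EV) to 201% (YAP5SA) of an even share.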

How the data were processed

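Per the study's methods, the authors trimmed reads with NGmerge, aligned them to GRCh37/hg19 with BWA-MEM and called peaks with Genrich, on each replicate, yet deposited 1 list per vector without saying how libraries were combined. Processing notes in the labels name Bowtie 0.12.2 and mm8 instead, which cannot apply to these human coordinates. As the authors deposited them, column 7 of a list is a signal, the summed caller statistic along the peak (its area), and columns 8 and 9 are −log10 p and −log10 q values, of which only the −log10 p of the summit was used here.

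Peaks overlapping a window by 1 base belonged to it. Density ratios used chromosome 12 up to the last base of any peak (133841942) and exact binomial intervals. Sites were merged overlapping peaks. Those named were the 3 with the largest median area per window and the 2 held by 2 to 6 lists with the largest area in any list. The members, gene lists and measures were chosen with earlier results of these data known. Computation used Python 3.11.15, pandas 2.3.3 and scipy 1.17.1, and the ratio was tested on simulated data. Files and gene tables are in different builds, so no gene annotation was laid over the peaks, and promoter peaks of other 12q genes and of adipocyte markers were not analysed here. Alternatives are in the closing section.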

Additional observations from a re-analysis of the deposited data

How the results depend on the processing

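Over the 7 lists, the median ratio of peaks per Mb in the 4 windows to the rest of chromosome 12 was 1.75 as deposited and 1.46 to 2.12 under 7 alternatives: a minimum of 4 for the −log10 p of the summit, a minimum area of 100, equal numbers of peaks per list, peaks placed by summit, all autosomes as the reference, a reference of 100-kb bins that hold a peak, and bases covered. The median ratio of areas was 1.01 and moved between 0.953 and 1.24 under its 6. The span ratio of 0.748 fell to 0.669 against all autosomes and to 0.624 against the bins that hold a peak, and lay between 0.748 and 0.80 under the other 5. The density ratio of the 4 windows pooled stayed above 1 and that of the span below 1 under each of these alternatives, while the area ratio lay on either side of 1. The pooled ratio mixes CDK4 and HMGA2, with medians of 4.2 and 2.27 as deposited, with MDM2 and FRS2, at 0.670 and 0.838. Of single windows and lists, 4 of 196 density values and 7 of 168 area values left their counting interval, and 3 of 20 named sites were held by fewer lists under the stricter summit, namely CDK4 site 17 by 4, MDM2 site 3 by 4 and MDM2 site 9 by 2. Bin sizes were varied after the data were seen. The share of span bins called dense was 10.2% to 14.3% with 250-kb bins, against 18.8% to 21.5% over the chromosome, and 0% with 1-Mb bins, against 13.4% to 20.1%. No paired analysis was possible because values per library are not part of the lists, and leaving out a library was not run for the same reason. Depth is unknown, so absent peaks cannot be told apart from peaks too weak to be called.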
